A study of Mus musculus with 576 samples.

Results

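The immunity-related GTPases are a family of interferon-inducible proteins that defend mouse cells from the inside against microbes living in vacuoles. The 8 genes described here are Irgm1, Irgm2, Igtp, Iigp1, Ifi47, Tgtp1, Tgtp2 and Gm12185. They were taken by their mouse Ensembl identifiers from the 46078 genes counted, and all 8 had reads in every group. RNA was sequenced from single haematopoietic stem cells (HSCs) of mouse bone marrow, flushed from femurs and tibias and sorted as CD150+ CD48- cKit+ Sca1+. The 6 groups of 96 cells were control p27 high, control p27 low, control p27 negative, LPS-treated p27 high, LPS-treated p27 low and LPS-treated p27 negative. LPS is lipopolysaccharide, a component of the bacterial outer membrane, and p27 is a cyclin-dependent kinase inhibitor that the series title places among markers of resting (G0) cells. How many mice were used, their strain and age, and the dose and timing of LPS were not given in the sources used here. The 96 cells of a group were therefore treated as 1 sample, and differences between groups carry no test.

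Of the 576 cells, 547 with at least 50000 gene reads were kept. These were 84, 93 and 95 control cells and 93, 90 and 92 LPS cells of the p27 high, low and negative classes. Kept cells held 52163 to 1942773 gene reads. The sort was checked against 10 HSC marker genes, whose summed level lay between 1298 and 2990 CPM in the 6 groups (CPM, reads per 1000000 gene reads of the summed cells). At least 9 of the 10 reached 1 CPM in each group. Of 6 neutrophil genes none reached 10 CPM in any group, and 8 T and NK cell genes summed to 60.8 to 175 CPM. Nkg7 was the one T and NK gene at 10 CPM or more, in every group, and Cd3g had no read. Other lineage genes were present. Summed levels were 217 to 1248 CPM for 4 megakaryocyte genes and 359 to 858 CPM for 8 macrophage and monocyte genes. Of 5 listed B cell genes Cd79b alone and of 4 listed dendritic cell genes Flt3 alone reached 10 CPM, each in every group. Of 4 listed endothelial genes Pecam1 and Emcn did so in every group and Kdr in LPS p27 low cells only. Of 5 erythroid genes 1 to 3 reached 10 CPM. A control p27 negative cell with more than 50% mitochondrially encoded reads was kept.

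Immunity-related GTPases fall into regulators and effectors. The regulators Irgm1, Irgm2 and Igtp (also called Irgm3) sit on the cell's own membranes and hold the effectors in an inactive state there. The effectors, among them Iigp1 (Irga6), the Tgtp1 and Tgtp2 products (Irgb6) and Ifi47 (Irgd), load onto the vacuole around a microbe and break it. Interferons switch the genes on through transcription factors that bind 2 kinds of DNA motif, gamma-activated sites (GAS) and interferon-stimulated response elements (ISRE). Gm12185 belongs to the family, and its role is not described here.

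The genes lie close together in the genome (mm10, GENCODE M21). All but Iigp1 are on chromosome 11. Irgm1 (chr11:48861968-48871683, minus strand), Gm12185 (chr11:48904656-48992226, minus), Tgtp1 (chr11:48985327-48994172, minus), Tgtp2 (chr11:49057194-49064206, minus) and Ifi47 (chr11:49076587-49096974, plus) form a cluster. Igtp (chr11:58199556-58207591, plus) and Irgm2 (chr11:58199618-58222782, plus) overlap each other in a second cluster.

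Promoter windows from RefSeq (GRCm38.p6, the assembly behind mm10) were found for 7 of the 8 genes and are shown because most of them hold the same pair of interferon motifs in the same arrangement. In the 250 bases before each start, a GAS (TTCNNNGAA) and an ISRE (GAAA, 2 free bases, then GAAA) were searched on both strands. The 30 bases around the ISRE are given 5′ to 3′ along the gene's strand, with the matched bases in capitals.
Igtp: tagccatTTCTAGGAActGAAACTGAAAgc
Irgm2: tagccatTTCCAGGAActGAAACTGAAAgc
Gm12185: tagccatTTCCAGGAAtaGAAAGTGAAAcc
Tgtp1: tagccatTTCCAGGAAtcGAAACTGAAAcc
Tgtp2: tagccatTTCCAGGAAtcGAAACCGAAAcc
Irgm1: agcctgtttcaaGAAATAGAAACCGAAAct

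In Igtp, Irgm2, Gm12185, Tgtp1 and Tgtp2 the GAS came first and the ISRE followed after 2 bases. The ISRE began 34, 64, 75, 77 and 70 bases before the start used for these genes. For Irgm2, Gm12185 and Tgtp1 that start (chr11:58214977, chr11:48927182 and chr11:48992246) lies inside the gene span given above. These genes therefore also have an annotated start further upstream. Counted from 1 at the 5′ end of the 30 bases, Irgm2 and Igtp differed by C11T alone, which lies in the free middle of the GAS. Tgtp1 and Tgtp2 differed by T24C alone, in the free middle of the ISRE. The window of Irgm1 held a pair of overlapping ISRE matches, 30 and 24 bases before the start, and no GAS. It lies at chr11:48871433-48871462, inside an exon of a longer Irgm1 transcript, whereas the other printed windows overlap no annotated exon. Ifi47 held neither motif in its window, which belongs to the most upstream of its annotated starts. Over all 32851 promoter windows of the same length, 7.02% held a GAS, 2.98% an ISRE, 0.332% both, and 0.0426% (14 windows) both with at most 10 bases between them. The 14 windows include those of the 5 genes with the pair. The printed 30 bases of these 5 match each other at 25 to 29 positions, so they are not unrelated windows. A match is a description of letters and not a measured binding site.

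The wider context is shown for the gene with the highest level per length under LPS as counted, Igtp, and for an effector, Tgtp2. These are the 250 bases before the start, at chr11:58199306-58199555 on the plus strand and chr11:49064213-49064462 on the minus strand, and neither overlaps an annotated exon.
Igtp: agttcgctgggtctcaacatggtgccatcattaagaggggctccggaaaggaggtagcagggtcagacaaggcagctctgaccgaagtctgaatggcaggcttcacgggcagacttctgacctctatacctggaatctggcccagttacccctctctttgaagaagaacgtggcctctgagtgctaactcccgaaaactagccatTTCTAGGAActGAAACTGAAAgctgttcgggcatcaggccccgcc
Tgtp2: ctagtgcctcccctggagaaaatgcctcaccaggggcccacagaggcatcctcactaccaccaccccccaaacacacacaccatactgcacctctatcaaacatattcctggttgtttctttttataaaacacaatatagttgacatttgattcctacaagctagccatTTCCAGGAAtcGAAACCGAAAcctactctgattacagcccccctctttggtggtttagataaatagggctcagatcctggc

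Each of the 8 genes stood higher in LPS cells than in control cells of the same p27 class, and summed over the 8 genes the level was more than 5 times the control level in each class. It was 725, 570 and 527 CPM in control cells of the 3 classes and 3910, 4878 and 4627 CPM in LPS cells. Values for the 3 classes are given here and below in the order p27 high, p27 low, p27 negative. The ratio of LPS to control was 5.39 (95% Poisson interval 5.31 to 5.48) for p27 high, 8.55 (8.42 to 8.69) for p27 low and 8.78 (8.66 to 8.90) for p27 negative cells. These intervals cover counting error only, since reads are not independent molecules and cells are not replicates. With cells summed, more RNA per cell and more cells with the RNA cannot be told apart, so the levels per cell follow further on.

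**Figure D1:**
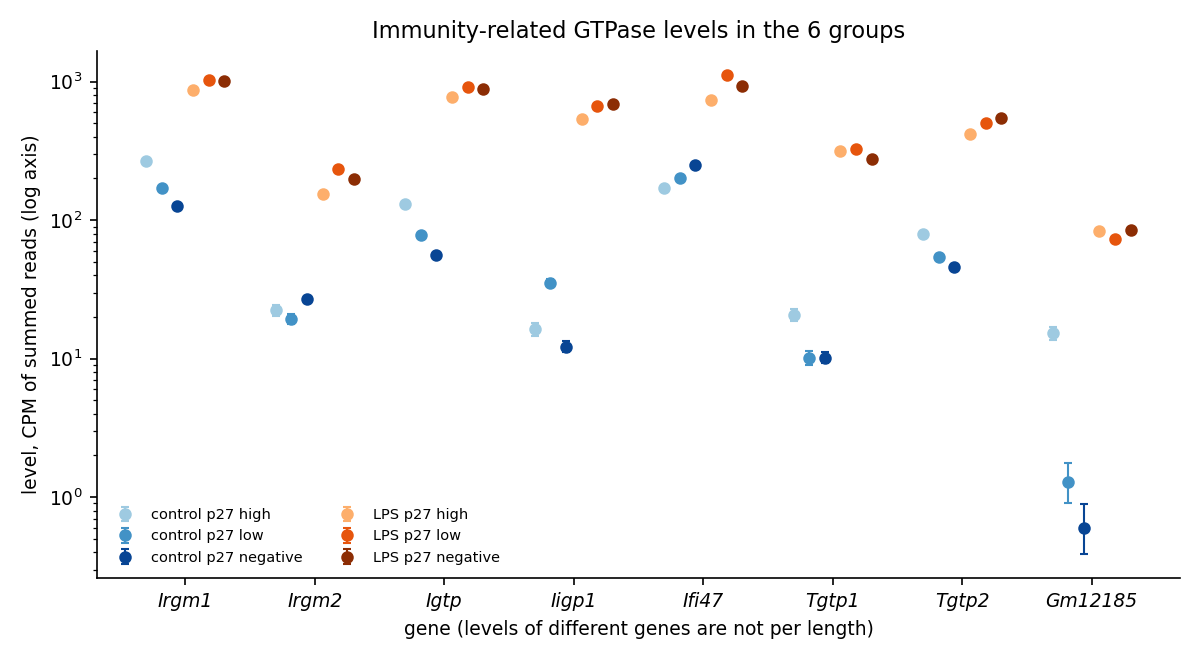
Level of each gene in the 6 groups, as CPM of the summed reads on a log axis, with 95% Poisson intervals that cover counting error only. In each gene the 3 LPS points lie above the 3 control points, and the control points of Irgm1, Igtp and Tgtp2 descend from p27 high to p27 negative while those of Ifi47 ascend.

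The regulators stood at least 3.28 times higher with LPS in each class. Irgm1 was at 267, 172 and 127 CPM in control cells and at 876, 1037 and 1015 CPM under LPS. Its log2 fold for LPS (after adding 1 CPM) was 1.71, 2.59 and 2.99 in the 3 classes. Igtp was at 131, 78.1 and 55.7 CPM without LPS and at 776, 920 and 888 CPM with it, with log2 folds of 2.56, 3.54 and 3.97. Irgm2 stood at 22.4, 19.3 and 26.8 CPM without LPS and at 155, 235 and 199 CPM with it, with log2 folds of 2.74, 3.55 and 2.85. All 9 of these folds passed the limit of 1 on the log2 scale, a 2-fold difference.

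Among the effectors, Iigp1 (chromosome 18, 60376027 to 60392634, plus strand) had a read in few control cells and in most LPS cells. It was at 16.3, 35.4 and 12.2 CPM in control cells and at 542, 673 and 691 CPM under LPS. The log2 folds were 4.97, 4.21 and 5.71. In control p27 low cells, a single cell held 54.6% of the Iigp1 reads, and without the cell with the most Iigp1 reads in each group the log2 fold there was 5.15. Ifi47 behaved differently, with the highest control level per length as counted. It was at 172, 201 and 248 CPM without LPS and 741, 1111 and 924 CPM with it, and its log2 folds of 2.10, 2.47 and 1.89 were the lowest of the 8 genes in the p27 low and p27 negative classes.

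Tgtp1 and Tgtp2 are near-identical copies. Of all stretches of 50 bases in the Tgtp2 transcripts, 86.6% also occur in another gene, and of those in Tgtp1 81.2%, so reads may be split or lost between them. Tgtp1 was at 20.7, 10.1 and 10.2 CPM without LPS and 318, 325 and 274 CPM with it. Tgtp2 was at 79.9, 53.95 and 45.9 CPM without LPS and 419, 504 and 551 CPM with it. Counted as 1 gene, the pair had log2 folds of 2.86, 3.67 and 3.86. Igtp and Irgm2 share 162 exon bases on the same strand, and Gm12185 and Tgtp1 share 223, so reads there cannot be assigned to either gene.

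Gm12185 had a read in few control cells. It was at 15.2, 1.28 and 0.601 CPM in control cells and at 83.6, 72.7 and 84.7 CPM under LPS. Its LPS to control ratio was 5.48 (4.89 to 6.16), 56.7 (41.4 to 80.02) and 141 (95.4 to 218). The control values of Gm12185 rested on 331, 39 and 25 reads, of which the top cell held 44.7%, 74.4% and 88%. Its fold in p27 high cells was accordingly uneven, from 1.11 to 6.86 on the log2 scale over the 3 parts of the cells by cell number.

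All 8 genes passed the 2-fold limit upward in each class, where 9.7%, 9.97% and 7.62% of the 13967 genes with a mean of at least 1 CPM did so in p27 high, low and negative cells. Downward, 13.8%, 17.6% and 11.4% of these genes and none of the 8 passed it. The median log2 fold of the 8 genes was 2.47, 3.54 and 3.76, and over all these genes it was -0.08, -0.15 and -0.11. The lowest of the 8 folds was above 95.2%, 97.4% and 97.1% of all genes in the 3 classes. TMM scaling moved the median of all genes by 0.11, 0.14 and 0.11 and left all 8 genes above the limit in each class. In each of the 3 parts of the cells by cell number, all 8 genes again passed the limit. Of 8 macrophage and monocyte marker genes at most 2 reached 10 CPM in any group, and their summed level was 630 to 858 CPM in control and 359 to 554 CPM in LPS cells. Their part in the LPS differences was not tested.

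**Figure D2:**
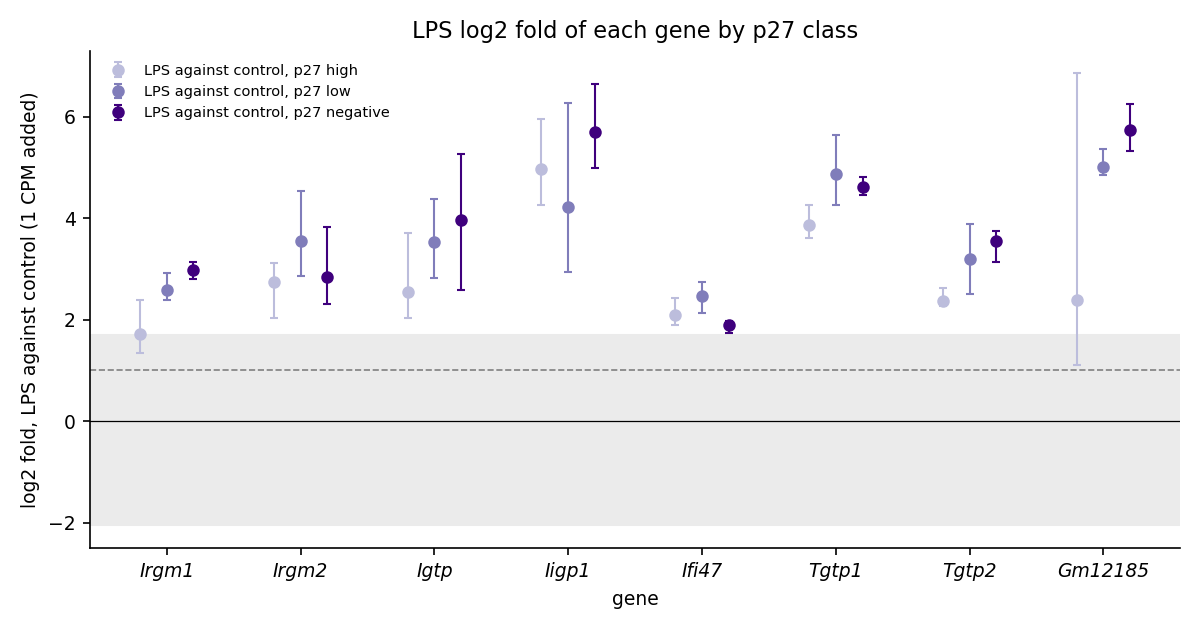
Log2 fold for LPS of each gene in the 3 p27 classes (1 CPM added), with bars for the lowest and highest value over 3 parts of the cells by cell number. The dashed line is the limit of 1, the grey band spans the lowest 5th and highest 95th percentile of all genes over the 3 classes (-2.05 to 1.71), and no bar reaches below 1.

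The fold for LPS differed among the classes for some genes by more than 1 on the log2 scale. For p27 high minus p27 negative cells the difference of log2 folds was -1.28 for Irgm1, -1.42 for Igtp, -1.18 for Tgtp2 and -3.36 for Gm12185. For Ifi47 it was 0.21. Iigp1 had its largest difference between p27 low and p27 negative cells, -1.50, and in control p27 low cells a single cell held 54.6% of its reads. The LPS levels of p27 high cells were 0.863, 0.873 and 0.761 times those of p27 negative cells for Irgm1, Igtp and Tgtp2, and the control levels were 2.10, 2.35 and 1.74 times. The share of all genes with a difference past 1 was not computed, so these differences cannot be set against a background. The difference of folds was not tested.

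In control cells, several genes stood higher in p27 high than in p27 negative cells and Ifi47 stood lower. The ratio of p27 high to p27 negative was 2.10 (2.02 to 2.18) for Irgm1, 2.35 (2.23 to 2.49) for Igtp, 1.74 (1.63 to 1.86) for Tgtp2 and 0.693 (0.667 to 0.719) for Ifi47. For Tgtp1 it was 2.04 (1.78 to 2.33), with a log2 fold after adding 1 CPM of 0.96, under the limit. For Irgm1, Igtp and Tgtp2 the p27 low level lay between, and for Ifi47 it lay between in the opposite order. That order did not hold in every part of the cells by cell number. The log2 fold of p27 high against p27 low ran over the 3 parts from -0.22 to 1.09 for Irgm1, from -1.36 to 2.05 for Igtp, from -0.17 to 1.11 for Tgtp2 and from -0.58 to 0.13 for Ifi47. For p27 low against p27 negative it ran from -0.35 to 2.16 for Igtp, from -0.52 to 0.85 for Tgtp2 and from -0.60 to 0.07 for Ifi47. Irgm1, Igtp and Gm12185 passed the 2-fold limit, which is 3 of 8 genes, where 24.7% of all genes passed it in either direction, so the count is not far from the background. The median log2 fold of the 8 genes was 0.87 beside 0.05 for all genes.

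Over 14 alternative ways of computing it, 1 of them chosen after seeing the data, the log2 fold of p27 high against p27 negative in control cells kept its sign for Irgm1 (0.22 to 1.76), Igtp (0.81 to 1.71) and Ifi47 (-0.65 to -0.47). It also kept its sign for Tgtp1 (0.64 to 1.17) and, over 13 alternatives, for Tgtp2 (0.51 to 1.16). For Irgm1 it was 0.22 in cells numbered 1 to 32 and 0.97 with TMM scaling, and for Igtp 0.81 in cells numbered 1 to 32 and 0.88 in cells numbered 33 to 64, all under the limit. Gm12185 descended from p27 high to p27 negative as well, on few reads, with a log2 fold of 3.34 that was 0 in cells numbered 1 to 32, and Irgm2 had -0.25. HSC marker genes summed to 2811 CPM in control p27 high and 1298 CPM in control p27 negative cells, and 4 megakaryocyte genes, of which 3 and 4 reached 10 CPM, summed to 263 and 1248 CPM. Their part in the difference was not tested.

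Between p27 high and p27 low control cells, Gm12185 was higher and Iigp1 lower by over 2-fold, 2 of 8 genes, where 20.9% of all genes passed in either direction. Between p27 low and p27 negative control cells, Iigp1 passed the limit, 1 of 8 genes with 21.9% of all genes. Without the cell with the most Iigp1 reads in each group, the Iigp1 log2 folds in these comparisons were -0.45 instead of -1.07 and 0.84 instead of 1.46, both under the limit. The 2 counts of genes are close to or below the background.

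Under LPS, in summed reads, none of the 8 genes passed the 2-fold limit between p27 high and p27 negative, between p27 high and p27 low, or between p27 low and p27 negative cells, where 22.2%, 21.7% and 20.3% of all genes did. The log2 folds of the 8 genes ran from -0.39 to 0.21, from -0.60 to 0.20 and from -0.22 to 0.27 in these comparisons. Ifi47 was at 0.67 times (0.656 to 0.678) its p27 low level in p27 high cells, and Irgm2 at 0.66 times (0.635 to 0.684). Medians over single LPS cells lay further apart, at 18.8, 298 and 207 CPM for Iigp1 and at 152, 566 and 404 CPM for Igtp.

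The share of the regulators among the reads of the 8 genes differed among the control classes. The regulators Irgm1, Irgm2 and Igtp held 58.02% (57.2 to 58.8, exact Clopper-Pearson) of the reads of the 8 genes in the control p27 high class. The share was 47.2% (46.5 to 47.96) for p27 low and 39.8% (39.1 to 40.4) for p27 negative. These intervals too cover counting error only, and cells are not replicates. Under LPS the share was 46.2%, 44.9% and 45.4%. Per kilobase of exon not shared with other genes it was 51.4%, 39.7% and 31.1% in control and 47.1%, 45.1% and 46.2% under LPS. The shares per kilobase may be too high, since reads of Tgtp1 and Tgtp2 may be lost. The median share per cell, over cells with at least 5 reads of the 8 genes, was 58.5%, 53.9% and 31.1% in control and 43.98%, 44.3% and 44.7% under LPS. Lower and upper quartiles over these cells were 26.7% and 83.7%, 13.04% and 83.3%, and 7.99% and 52.4% in control. Under LPS they were 25.8% and 61.6%, 34.4% and 55.02%, and 35.7% and 51.8%. The control classes thus lay further apart than the LPS classes in summed and median share, while their single cells overlapped widely. This difference was not tested. A single gene, Ifi47, held 3738, 6101 and 10333 of the 15739, 17363 and 21912 reads of the 8 genes in control cells. The regulators held 9131, 8197 and 8714 of them. The effectors Tgtp1 and Tgtp2 stood higher in p27 high than in p27 negative control cells, as Irgm1 and Igtp did. The share without Ifi47 was not computed, so the values do not show a shift between regulators and effectors as sets.

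Per kilobase of unshared exon, Ifi47 ranked highest in the 3 control groups, with 76.3, 88.9 and 110 CPM per kilobase. Igtp followed with 70.5, 41.99 and 29.96, then Irgm1 with 45.9, 29.6 and 21.9 and Tgtp2 with 27.2, 18.4 and 15.6. In LPS cells Igtp ranked highest with 417, 494 and 478 CPM per kilobase, and Ifi47 had 328, 492 and 410. Irgm1 had 151, 179 and 175 and Tgtp2 143, 172 and 187, a pair whose order changed between classes. Iigp1 moved from 2.80, 6.07 and 2.10 CPM per kilobase to 93.01, 116 and 119. Gm12185 was the lowest in all LPS groups with 15.6, 13.5 and 15.8.

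Single cells showed that the upper part of the LPS cells differed most from control, and that the lower part stood higher as well. The lower quartile of the summed level per cell was 286, 227 and 206 CPM in control cells. Under LPS this quartile was 540, 560 and 476 CPM. The summed level of the 8 genes per cell ran from 0 to 3370 CPM with a median of 625 in control p27 high cells, from 0 to 5875 with a median of 420 in p27 low, and from 0 to 3366 with a median of 407 in p27 negative cells. In LPS cells it ran from 107 to 17914 with a median of 1012, from 73.2 to 15519 with a median of 4137, and from 26.2 to 17247 with a median of 2601. The ranges of control and LPS cells overlapped in every class. Of the LPS cells, 26 of 93 p27 high, 18 of 90 p27 low and 16 of 92 p27 negative cells lay below the median of control cells of their class.

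The LPS cells fell into a lower and an upper range with few cells between. Of all 275 LPS cells, 65 were under 500 CPM, 56 from 500 to 1000, 24 from 1000 to 2000, 15 from 2000 to 4000, 49 from 4000 to 8000 and 66 at 8000 or more. In the 272 control cells the same ranges held 151, 75, 36, 8, 2 and 0 cells. At 2000 CPM, a limit set after the values were seen, 31 of 93 (33.3%, 23.9 to 43.9), 53 of 90 (58.9%, 48.02 to 69.2) and 46 of 92 (50%, 39.4 to 60.6) LPS cells in p27 high, low and negative, in that order, stood at or above it. The numbers for control cells were 2 of 84, 6 of 93 and 2 of 95. In p27 high cells 16 LPS cells lay just under the limit, from 1000 to 2000 CPM, and 5 just above it, from 2000 to 4000. The upper and lower ranges are ranges of a level and not cell types.

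Both ranges occurred in each of the 3 parts of the cells by cell number. The share of LPS cells at or above 2000 CPM was 41.4%, 31.2% and 28.1% in p27 high cells numbered 1 to 32, 33 to 64 and 65 to 96. It was 64.3%, 51.6% and 61.3% in p27 low and 64.3%, 37.5% and 50% in p27 negative cells. The sources used here do not tie cells to mice, so a division among mice and a division among cells of a mouse cannot be told apart.

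**Figure D3:**
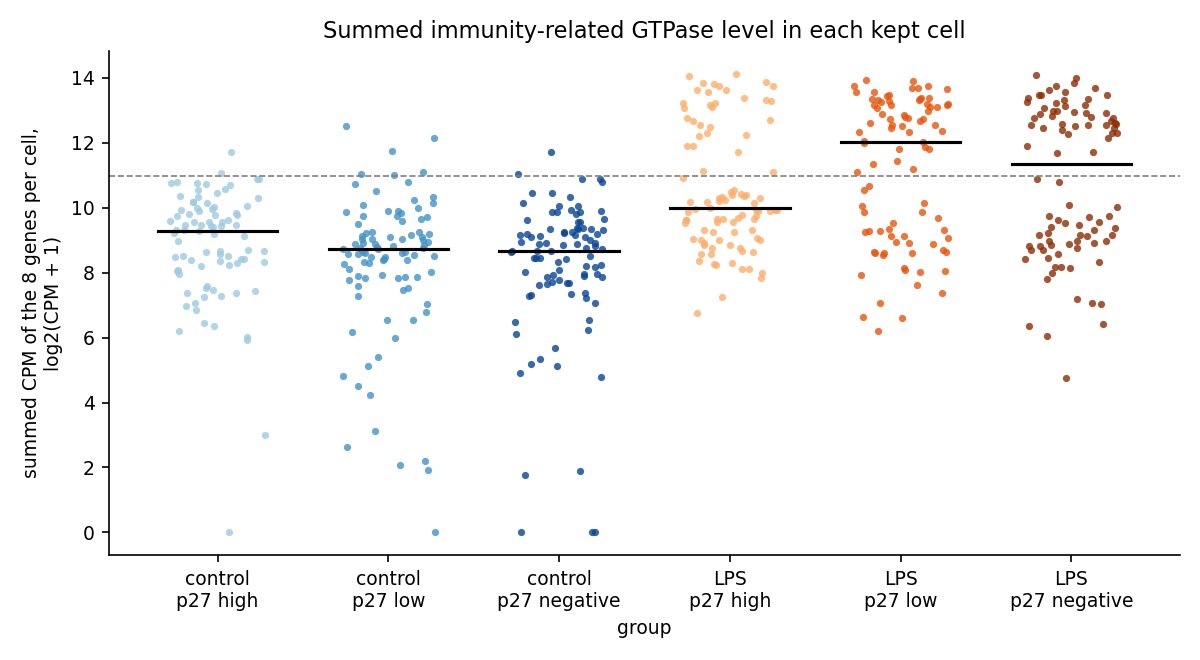
Summed CPM of the 8 genes in each kept cell, on the log2(CPM + 1) scale, by group; horizontal bars are medians and the dashed line is 2000 CPM. Control cells form a single spread with 10 of 272 cells at or above the line, and LPS cells form an upper and a lower cloud with 130 of 275 at or above it.

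Gene by gene, a larger share of LPS cells than of control cells of the same class held a read of each of the 8 genes. With every cell thinned to 50000 reads, Iigp1 had a read in 14.3%, 10.8% and 9.47% of control cells and in 61.3%, 80% and 80.4% of LPS cells. Without thinning, at unequal depth, the Iigp1 shares were 23.8%, 17.2% and 20% in control and 91.4%, 98.9% and 91.3% in LPS cells. With at least 5 Iigp1 reads after thinning they were 7.14%, 6.45% and 4.21% in control and 37.6%, 56.7% and 55.4% in LPS cells. Igtp had a read in 40.5%, 33.3% and 34.7% of thinned control cells and 79.6%, 78.9% and 82.6% of LPS cells. Ifi47 was the most widely found in control p27 negative cells, with 55.9%, 65.6% and 78.9% in control and 90.3%, 93.3% and 93.5% under LPS. Gm12185 had a read in 5 of 84, 3 of 93 and 1 of 95 control cells and in 33.3%, 36.7% and 41.3% of LPS cells.

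The number of the 8 genes found together in a cell also differed. The median was 3, 2 and 3 genes in control cells at 50000 reads, and 5, 7 and 7 in LPS cells. At least 6 genes were found in 5 of 84, 6 of 93 and 3 of 95 control cells. In LPS cells at least 6 were found in 42 of 93 (45.2%, 34.8 to 55.8), 60 of 90 (66.7%, 55.9 to 76.3) and 55 of 92 (59.8%, 49.04 to 69.9). These intervals too cover the drawing of cells only, and each group is 1 sample. All 8 were found in 23, 31 and 36 LPS cells and in 0, 1 and 1 control cells.

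**Figure D4:**
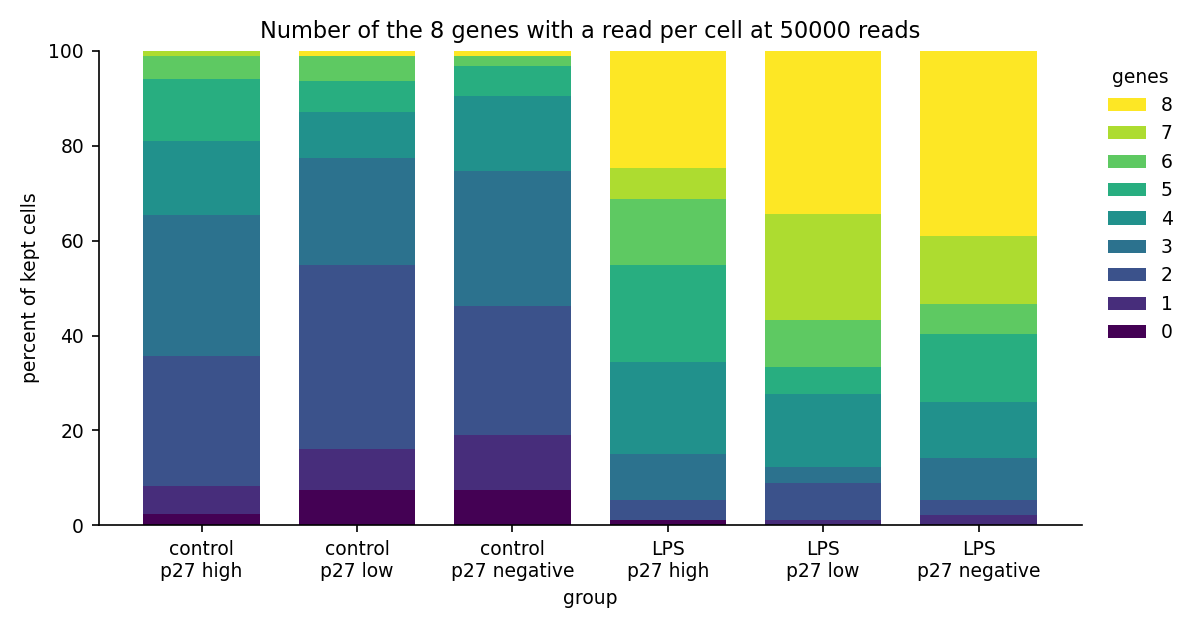
Percent of kept cells by the number of the 8 genes with at least 1 read, in each group, with every cell thinned to 50000 reads. Cells with 0 to 3 genes make up most of each control group, and cells with 6 to 8 genes make up 45.2%, 66.7% and 59.8% of the LPS groups.

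The 8 genes varied together over LPS cells. The Spearman correlation of thinned reads, averaged over the 3 p27 classes, had a median of 0.70 over the 28 pairs of genes under LPS, from 0.57 for Gm12185 and Ifi47 to 0.81 for Tgtp1 and Tgtp2. In control cells the median was 0.14, from -0.08 for Irgm2 and Igtp to 0.24 for Igtp and Tgtp2, values too weak in such sparse counts to be read as a relation. Under LPS the regulators correlated with the effectors about as they did with each other, for example 0.75 for Irgm1 with Iigp1 and 0.71 for Irgm1 with Igtp. Iigp1, the gene outside the chromosome 11 clusters, had 0.67 to 0.75 with the 7 genes on chromosome 11. The points are cells of shared libraries and depth, the upper and lower ranges above enter each value, and Tgtp1 and Tgtp2 may share reads. The values are a description without a test.

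**Figure D5:**
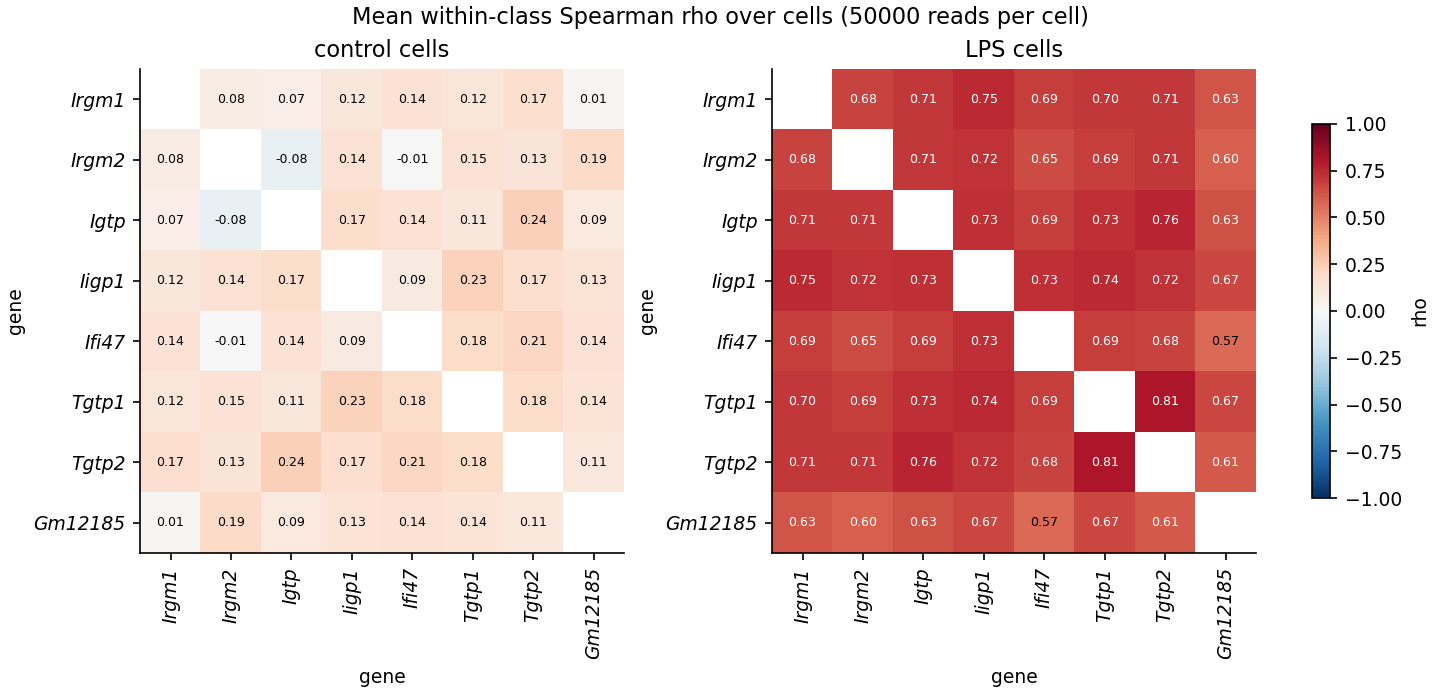
Mean Spearman rho over the 3 p27 classes for each pair of genes, across control cells (left) and LPS cells (right), each cell thinned to 50000 reads. Control values lie between -0.08 and 0.24 and LPS values between 0.57 and 0.81.

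The genes most like the 8, by the mean correlation with their summed reads over the 3 LPS classes among 9736 genes with a mean of at least 10 CPM, were Ifit1 (0.81), Cxcl10 (0.81), Gm12250 (0.81), Serpina3f (0.79), Oasl2 (0.78), Serpina3g (0.78), Rtp4 (0.77), Gm8995 (0.77), Isg15 (0.76) and Usp18 (0.76). Over the ranked genes the median was -0.05 and the 99th percentile 0.50. In control cells the same 10 genes had mean correlations between -0.01 and 0.21. Cxcl10, a chemokine, was at 1.52, 3.35 and 2.77 CPM without LPS and 5745, 7265 and 7750 CPM with it. Gm12250, itself an immunity-related GTPase (Irgb10) listed in the annotation as a pseudogene, was at 29.6, 12.2 and 14.98 CPM without LPS and 296, 386 and 390 CPM with it.

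Beyond the 8 genes, 9 further family genes were listed and 8 had reads. Gm12250, Gm4951, Gm4841, F830016B08Rik, Gm5431, 9930111J21Rik1 and 9930111J21Rik2 stood at least 2-fold higher under LPS in each class. For 9930111J21Rik2 this rested on 51, 13 and 43 control reads, of which the top cell held 82.4%, 84.6% and 76.7%. Over the 3 parts of the cells by cell number its log2 fold ran from -1.15 to 3.73 in p27 high and from -0.06 to 3.12 in p27 negative cells. 9930111J21Rik1 had 1, 0 and 1 control reads. Gm5431 had no read in control cells and 20.2, 3.38 and 3.31 CPM in LPS cells, at least 146, 34.3 and 45.8-fold higher against a floor of 3 reads over the control group. Gm4951 was at 4.01, 5.88 and 2.55 CPM without LPS and 202, 181 and 146 CPM with it. Irgq, a quasi-GTPase relative, took another course, with 13.1, 40.5 and 12.6 CPM without LPS and 21.2, 13.9 and 2.94 CPM with it, log2 folds of 0.66, -1.48 and -1.79. A single cell held 55.3% and 44.2% of the Irgq reads in the control p27 high and low groups. Irgc1, known from testis, had no read.

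Along the interferon pathway that leads to these genes, 4 of 11 listed ligand genes had any read. Of the interferons among them Ifnb1 had 7 reads in LPS p27 low cells and Ifnk 8 reads in control p27 negative cells. Il12a, a subunit of a cytokine that induces interferon-gamma, was at 39.6, 75.4 and 67.02 CPM without LPS and 29.01, 107 and 57.96 CPM with it. Il18, another such cytokine, was at 47.3, 15.8 and 6.90 CPM without LPS and 60.1, 33.2 and 10.4 CPM with it, and its log2 fold of 1.02 in p27 low cells passed the limit. Ifng had no read in any group. Of 7 receptor and kinase genes, 0, 1 and 1 passed the 2-fold limit upward and none downward. Over all genes with a mean of at least 1 CPM, 9.7%, 9.97% and 7.62% passed upward and 13.8%, 17.6% and 11.4% downward. The receptor and kinase counts are not far from that background, which holds for the lists below as well. Ifngr2, the signalling chain of the interferon-gamma receptor, had log2 folds of 0.83, 2.30 and 1.10. Ifngr1, its ligand-binding chain, was lower by less than 2-fold, with -0.59, -0.40 and -0.82.

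Of 12 interferon transcription factor genes, 6, 9 and 7 passed the limit upward and 0, 0 and 2 downward. Irf1 was at 243, 206 and 179 CPM in control and near 1200 CPM in LPS cells (1198, 1217 and 1212). Irf7 had the largest mean fold, 4.63, 3.83 and 4.43 on the log2 scale, and Stat2 had 2.18, 3.17 and 2.12. Of 7 inhibitors of the pathway, 3, 3 and 4 passed upward and none downward. Socs1, which blocks the kinases, had log2 folds of 1.001, 2.82 and 3.04, and Usp18 had 3.13, 4.70 and 4.29.

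Targets of the same pathway moved upward in different proportions. Of 17 type I interferon targets, 17 passed the limit in each class, with median log2 folds of 4.36, 4.42 and 4.10, and Ifit3 had 8.09, 6.82 and 5.51. Of 9 guanylate-binding protein genes with a mean of at least 1 CPM, 8, 7 and 7 passed, with medians of 3.12, 3.29 and 3.41. Guanylate-binding proteins are larger interferon-inducible GTPases that act on the same vacuoles, and Gbp5 had 3.97, 5.27 and 4.92. Of 13 other interferon-gamma targets, 5 passed upward in each class and 0, 1 and 0 downward. Of 11 genes of ATG8 conjugation, the autophagy step that places immunity-related GTPases on membranes, 1, 1 and 0 passed upward and none downward. Atg5 had log2 folds of 0.17, -0.35 and 0.33. Of 10 further autophagy genes 1, 0 and 0 passed upward and 1, 1 and 1 downward. Both autophagy counts are not far from the background of all genes, 9.7%, 9.97% and 7.62% upward and 13.8%, 17.6% and 11.4% downward. Of 11 genes of vacuole ubiquitin factors and other cell-autonomous defence, 6, 8 and 7 passed upward and 1, 0 and 0 downward, led by Ifi204 with 6.65, 6.71 and 5.30.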

How the data were processed

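RNA of 576 sorted cells was sequenced, 96 per group. The authors deposited raw read counts for each gene and cell, in 1 table for control and 1 for LPS cells. Per the submitters' processing notes GSNAP, HTSeq 0.6.0 and mm10 were used, and the annotation, strand setting and read filters were not given in the sources used here. Of all reads 34.1% were in genes, 2.06% in spike-ins, 52.7% unaligned, 6.86% in no feature and 4.28% ambiguous. Rows that name no gene were left out. No read is listed as aligned to several places, so reads of copies such as Tgtp1 and Tgtp2 may be missing.

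Symbols and exons came from GENCODE M21, which named 45143 of 46078 genes. CPM were computed from reads summed over kept cells, with exact 95% Poisson intervals. Log2 folds add 1 CPM, and a log2 fold of at least 1 counts as passing. Shares used cells thinned to 50000 reads, with Clopper-Pearson intervals. No clustering or doublet removal was done. Named were all 8 genes, relatives with reads, up to 4 genes per list with the largest mean fold, 7 pathway genes (1 of which is not reported here) and the 10 most alike. The genes and lists were chosen with earlier results of these data known. Python 3.11.15, scipy 1.17.1 and edgeR 4.0.16 (TMM factors only) were used, and the procedure was tested on simulated data.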

Additional observations from a re-analysis of the deposited data

Results flagged for a closer look

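The LPS effect had opposite signs between the p27 classes for 2 transcription factor genes of the interferon pathway, and the difference was not tested. Both genes were named after their values were seen. Irf8, a factor of myeloid cells, had log2 folds of 0.71 in p27 high and 1.22 in p27 low cells and of -2.13 in p27 negative cells. It stood at 20.5, 15.9 and 36.8 CPM without LPS and at 34.3, 38.3 and 7.65 CPM with it. Ciita, the activator of MHC class II genes, had log2 folds of 1.07 and 1.16 in p27 high and low cells and of -1.18 in p27 negative cells, at levels of 0.551 to 4.32 CPM. Over the 3 parts of the cells by number the sign of both genes changed in each class.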

How the results depend on the processing

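All 8 genes (7 of 7 with Tgtp1 and Tgtp2 as 1 gene) stood at least 2-fold higher under LPS in each class under each of the 14 alternatives, of which the one without the cell with the most reads of each gene was chosen after seeing the data. Counts between p27 classes in control cells were less stable, and the cause was not tested. For p27 high against p27 negative the count was 1 in cells numbered 1 to 32, instead of 3. For p27 high against p27 low it was 4, 4 and 6 in cells numbered 1 to 32, 33 to 64 and 65 to 96, and 1 with 5 CPM added or without the cell with the most reads of each gene, instead of 2. For p27 low against p27 negative it was 4 in cells numbered 1 to 32, and 0 without the cell with the most reads, instead of 1. Under LPS it was 1 instead of 0 for p27 high against low in cells 65 to 96 and for p27 low against negative in cells 33 to 64. Among genes past the limit, log2 folds turned sign for Iigp1 between p27 high and low control cells (1.36 in cells 33 to 64), for Gm12185 in the same comparison (-2.00 in cells 1 to 32) and for Iigp1 between p27 low and negative control cells (-0.59 in cells 33 to 64). Most folds under the limit between control classes also turned sign in at least 1 part of the cells by number or 1 other alternative; between p27 high and negative these were Iigp1 (-0.60) and Irgm2 (0.92), and between p27 high and low Irgm1, Irgm2, Igtp, Tgtp2 and Ifi47. The share of cells with a read of any of the 8 genes was 98.9% in LPS p27 high cells and 100% at 200000 reads or without thinning. In control cells it was 97.6% in p27 high and 100% at 200000 reads. In control p27 low cells it was 92.5%, with 98.1% at 200000 reads, 98.9% without thinning and 82.8% for at least 5 reads. In control p27 negative cells it was 92.6%, with 97.1% at 200000 reads and 83.2% for at least 5 reads. No paired analysis was possible because cell numbers only name cells, each group is 1 sample and no test was run. At the depth used here, low genes such as Gm12185 in control cells rest on a few cells.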

Other observations

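The 29 cells left out for low depth were not used in any comparison. Summed, the 16 control cells among them held the 8 genes at 724 CPM (651 to 802) and the 13 LPS cells at 828 CPM (685 to 993).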
